A study of Mus musculus with 8 samples.

Results

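The mitochondrial ribosomal protein genes were taken as all genes whose updated symbol starts with Mrpl or Mrps and a number, and 75 of the 19896 named genes on the array were such genes. They were read by 88 probes, 63 genes by 1 probe, 11 by 2 and Mrpl17 by 3, and probes of a gene were averaged. By name 46 belong to the large subunit (Mrpl) and 29 to the small subunit (Mrps). The array lists Mrpl42, Mrpl57 and Mrpl58 only under the older names D10Ertd322e, Mrp63 and Ict1, and no probe here carries the name of Mrpl18, Mrpl41 or Mrpl51, which complete the 78 such genes of the mouse reference table. The genes lie on 17 chromosomes. Liver total RNA came from 3 mice labelled as knockouts of Me1, also called Mod1, which encodes cytosolic malic enzyme, and from 5 littermates labelled wild type. Each RNA was hybridised on a 2-colour array with a common reference, liver RNA pooled from 5 wild types, and every value is the log2 of mouse over pool. The wild-type mice carry the numbers 14, 15, 21, 22 and 26, and the knockout mice 27, 31 and 33. The labels used here do not say which wild types went into the pool, how the allele was made, or the strain, age, sex and diet.

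Mitochondria carry their own ribosome, which translates the few proteins that the mitochondrial genome encodes, nearly all of them core subunits of the respiratory chain and of ATP synthase. The ribosomal RNAs are made inside the organelle, while every protein of this ribosome is encoded in the nucleus, made in the cytosol and imported, so its assembly draws on both genomes. In hepatocytes, which hold many mitochondria, this ribosome supplies the membrane core of oxidative phosphorylation. Some of its proteins descend from those of the bacterial ribosome and others were added in the mitochondrial lineage. Nuclear genes for mitochondrial proteins often carry promoter sites for the transcription factors NRF1, GABP (of the ETS family) and YY1.

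Promoter windows, from 250 bases before to 50 bases after the annotated start, were at hand for 66 of the 75 genes in the RefSeq table of build GRCm38.p6. The stretches below run from 150 bases before the start to 30 bases after it and belong to genes whose 3 knockout values lay outside the 5 wild-type values (Mrpl20, Mrpl3, Mrpl39, Mrps23 and Mrps27) and to Mrpl12, which followed the median of the other genes closely. Mrps35, the remaining gene with such knockout values, had no window. Mrpl37 followed that median most closely, but its stretch held none of the words searched and is not shown. Its whole window did hold a YY1 word and an E-box. Mrps16, the next closest after Mrpl12, had 2 windows and is not shown either. The stretches shown all hold a word, partly through this choice, and do not give the share of windows with one. The stretches are read 5′ to 3′ along the gene, and capitals mark matches to the words searched. The Mrpl20 stretch lies at chr4:155802728-155802907 on the plus strand and holds an E-box. That of Mrpl3 lies at chr9:105053118-105053297 on the plus strand and that of Mrps23 at chr11:88204238-88204417 on the plus strand, and both hold an ETS word, on opposite strands. The Mrpl39 stretch, at chr16:84735215-84735394 on the minus strand, holds an NRF1 word, and so does that of Mrpl12 at chr11:120484487-120484666 on the plus strand. The Mrps27 stretch, at chr13:99344636-99344815 on the plus strand, holds 1 ETS word between 2 YY1 words.
Mrpl20: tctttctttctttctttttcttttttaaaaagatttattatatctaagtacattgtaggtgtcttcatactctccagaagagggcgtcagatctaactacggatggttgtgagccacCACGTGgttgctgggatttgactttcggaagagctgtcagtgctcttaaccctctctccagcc
Mrpl3: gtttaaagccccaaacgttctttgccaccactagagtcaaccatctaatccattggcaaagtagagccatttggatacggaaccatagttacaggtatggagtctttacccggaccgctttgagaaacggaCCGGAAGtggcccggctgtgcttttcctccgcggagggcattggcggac
Mrpl39: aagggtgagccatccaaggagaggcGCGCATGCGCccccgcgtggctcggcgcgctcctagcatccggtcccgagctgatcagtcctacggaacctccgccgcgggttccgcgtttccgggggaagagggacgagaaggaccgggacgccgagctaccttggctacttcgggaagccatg
Mrpl12: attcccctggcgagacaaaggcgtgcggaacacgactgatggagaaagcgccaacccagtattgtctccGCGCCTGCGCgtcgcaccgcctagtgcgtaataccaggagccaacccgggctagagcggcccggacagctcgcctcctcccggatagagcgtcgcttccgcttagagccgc
Mrps23: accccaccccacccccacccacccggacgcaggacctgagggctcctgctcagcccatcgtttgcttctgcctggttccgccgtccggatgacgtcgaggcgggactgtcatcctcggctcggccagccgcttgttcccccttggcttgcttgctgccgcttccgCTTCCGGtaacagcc
Mrps27: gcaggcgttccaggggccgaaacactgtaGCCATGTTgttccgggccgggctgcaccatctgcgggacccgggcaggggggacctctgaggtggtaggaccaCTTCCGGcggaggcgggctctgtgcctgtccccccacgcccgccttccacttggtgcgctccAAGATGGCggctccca

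The words were searched on both strands: the 10-letter palindrome of NRF1 with 1 inner letter left free (and a stricter form with that letter fixed to A, as seen in capitals in the Mrpl39 stretch), CCGGAAG for the ETS family, AANATGGC for YY1, the E-box CACGTG bound by MYC and MAX, and TGACCTTTG for ERR receptors. The last 3 letters of the ETS word can also be the first 3 of a YY1 word, so a single stretch can count for both. The ETS word occurred in 24 of the 66 gene windows (36.4%), against 12.9% of the windows of 17492 protein-coding genes and 9.93% of all windows of the table. The YY1 word occurred in 19 windows (28.8%), against 7.46% of protein-coding genes and 6.96% of all. The NRF1 word occurred in 13 (19.7%), against 7.17% and 5.19%, and its stricter form in 3 (4.55%), against 1.47% and 1.07%. At least 1 of these 3 kinds of word was present in 45 of the 66 windows (68.2%) and in 23.9% of protein-coding windows. The E-box was found in 5 windows (7.58%), against 8.91% and 8.09%, and the ERR word in none of the 66, against 0.497% and 0.544%. Cytosolic ribosomal protein genes had the ETS word in 39.6% of 53 windows but the NRF1 word in 7.55%, and nuclear oxidative phosphorylation genes had each of the 3 in 23.9% of 71 windows. These shares are counts of letters in the reference, with no test, and say nothing of binding. The knockout minus wild-type difference had a median of 0.00042 (log2) over the 24 genes with an ETS word and -0.011 over the 42 without, -0.00053 with and -0.010 without a YY1 word, and -0.011 with and -0.0083 without an NRF1 word. Genes with and without a word thus had almost the same median difference.

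**Figure D1:**
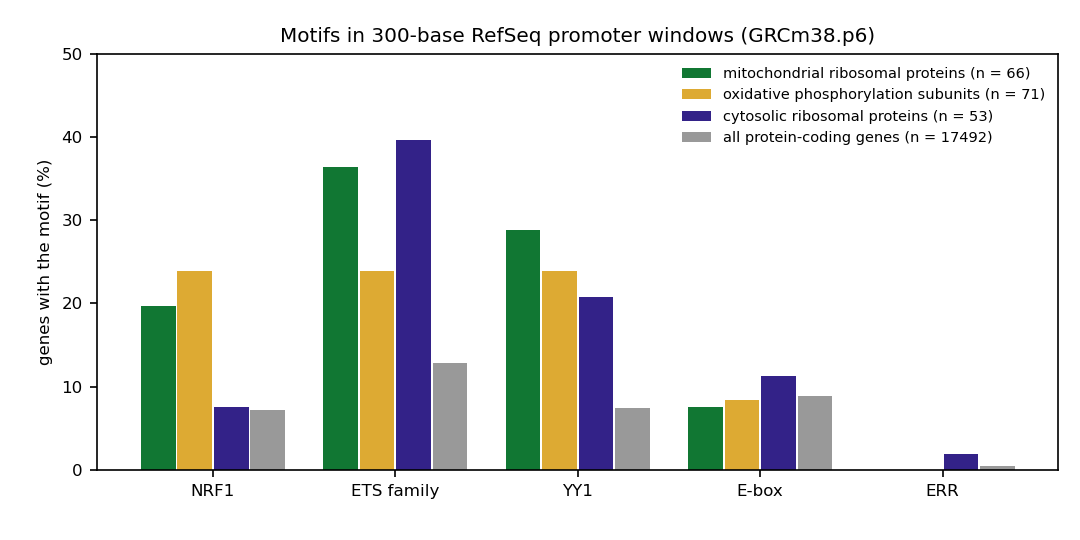
Share of genes (%, y axis) whose 300-base RefSeq promoter window holds each searched word on either strand, for 66 mitochondrial ribosomal protein genes, 71 oxidative phosphorylation genes, 53 cytosolic ribosomal protein genes and 17492 protein-coding genes. The bars for the ETS family and YY1 stand at 36.4% and 28.8% for the mitochondrial ribosomal protein genes, above the 12.9% and 7.46% of all protein-coding genes.

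The scale and the direction of the deposited ratios come with no description and were inferred. Over the 300 most variable probes the mean wild-type ratio had a median of 0.999 when read as log10 of mouse over pool and 1.33 with the sign turned. A ratio near 1 is awaited only if the pool is an even mix of these same wild types. The labels do not state this, so scale and direction rest on that assumption. Read as log2 it was 0.968, so the check parts the 2 scales only narrowly. Under a log2 reading every difference and standard error would shrink by 1 common factor and no p-value would change. The check does not reach the knockout arrays, and 3 pairs of arrays correlated below -0.3 over all probes (wild types 14 and 22 with r = -0.322, wild types 22 and 26 with r = -0.459, wild type 14 and knockout 33 with r = -0.394), so a second value with the knockout ratios reversed in sign stands beside the main comparisons. The knockouts correlated with each other at 0.4197 (27 and 31), 0.4396 (27 and 33) and 0.6221 (31 and 33), and at 0.0993 to 0.264 with wild types 21 and 22. Over 39556 probes the log2 ratios had an SD of 0.127 to 0.291 by array, widest for wild type 22 (0.291) and knockout 33 (0.273). The probe for Me1 had log2 ratios of 0.82, -0.64, -0.70, -1.73 and 0.70 in wild types 14, 15, 21, 22 and 26. In knockouts 27, 31 and 33 it had 0.82, -0.81 and -0.68. High and low values thus occurred under both labels, and the difference was 0.09 ± 0.64 (SE, adjusted p = 0.972). The targeted gene was therefore no check of the genotype labels, and the probe's place in the altered gene is not stated. Ratios to a liver pool give no level of a marker, so the tissue itself could not be checked against marker levels. The median ratio of 10 hepatocyte markers lay between -0.06 and 0.13 in every array, while that of 4 erythroid markers ran from -0.72 in wild type 14 to 0.74 in wild type 22. Of 12 Kupffer cell and macrophage markers 10 were lower in the knockouts (median difference -0.17), with a median ratio of -0.38 to 0.22 in the wild types and -0.26 to -0.11 in the knockouts. Lymphocyte markers were higher for 6 of 8 genes (median difference 0.18), with medians of -0.15 to 0.060 and 0.040 to 0.26, and the stellate cell median was lowest in wild type 22, at -0.35. Endothelial and cholangiocyte medians lay between -0.10 and 0.079 in every array, but single markers differed more. Differences ran from -1.01 to 0.21 over 8 endothelial markers and from -0.50 to 0.095 over 6 cholangiocyte markers. An unadjusted p under 0.05 (limma) was found for 3 (37.5%) and 2 (33.3%) of them, against 9.28% of all features. The lowest adjusted p was 0.367 and 0.484. The part of these cells in the results was not tested. In bulk liver, fewer cells of a type and less RNA per cell cannot be told apart.

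The main comparison asked whether the mice labelled as Me1 knockouts differed from their littermates in these genes. None of the 75 genes passed an adjusted p of 0.05 (limma, Benjamini-Hochberg over all 36169 features), where 10 features or 0.0276% of all did (0.0138% higher and 0.0138% lower). The lowest adjusted p among them was 0.315, for Mrpl20. At an unadjusted p under 0.05 there were 8 genes (10.7%), 5 higher and 3 lower in the knockouts, close to the 9.28% of all features and 11.3% of named genes. In 6 genes (8%) all 3 knockout values lay outside the 5 wild-type values, against 7.21% of all features and 7.65% of named genes. Of these 5 were higher and 1 lower, while 4.35% of all features were higher and 2.85% lower in this way. The shares of called and of non-overlapping genes were near the background. The genes split evenly, with 37 higher and 38 lower in the knockouts, and their median difference was -0.00053 (log2), beside 0.013 over all features and -0.00029 over named genes.

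The differences were also small. The median absolute difference was 0.059, against 0.073 over named genes, and 57 of the 75 genes differed by less than 0.1. Only Mrpl20, Mrpl3, Mrps23 and Mrpl9 differed by more than 0.2 (5.33%, against 15.3% of named genes). The 95% confidence interval of the difference lay within ±0.3 for 58 genes and reached beyond it for 17, and it stayed within a 2-fold change either way for all but Mrps23. With a median standard error of 0.064 and a median reach of that interval of 0.15 to either side, the number of arrays limits what can be resolved in a single gene. Of the 600 gene values over the 8 mice, 557 (92.8%) lay within ±0.2 of the pool, against 83.3% for all named genes. With the 3 knockout columns reversed in sign, 38 genes were higher and 37 lower, none passed the adjusted threshold (0.0221% of all features did), 9 had an unadjusted p under 0.05 (11.5% of all features) and the median difference was 0.00084. Under that sign 8 genes did not overlap between the genotypes (10.8% of all features), and 5 genes did not overlap either way.

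**Figure D2:**
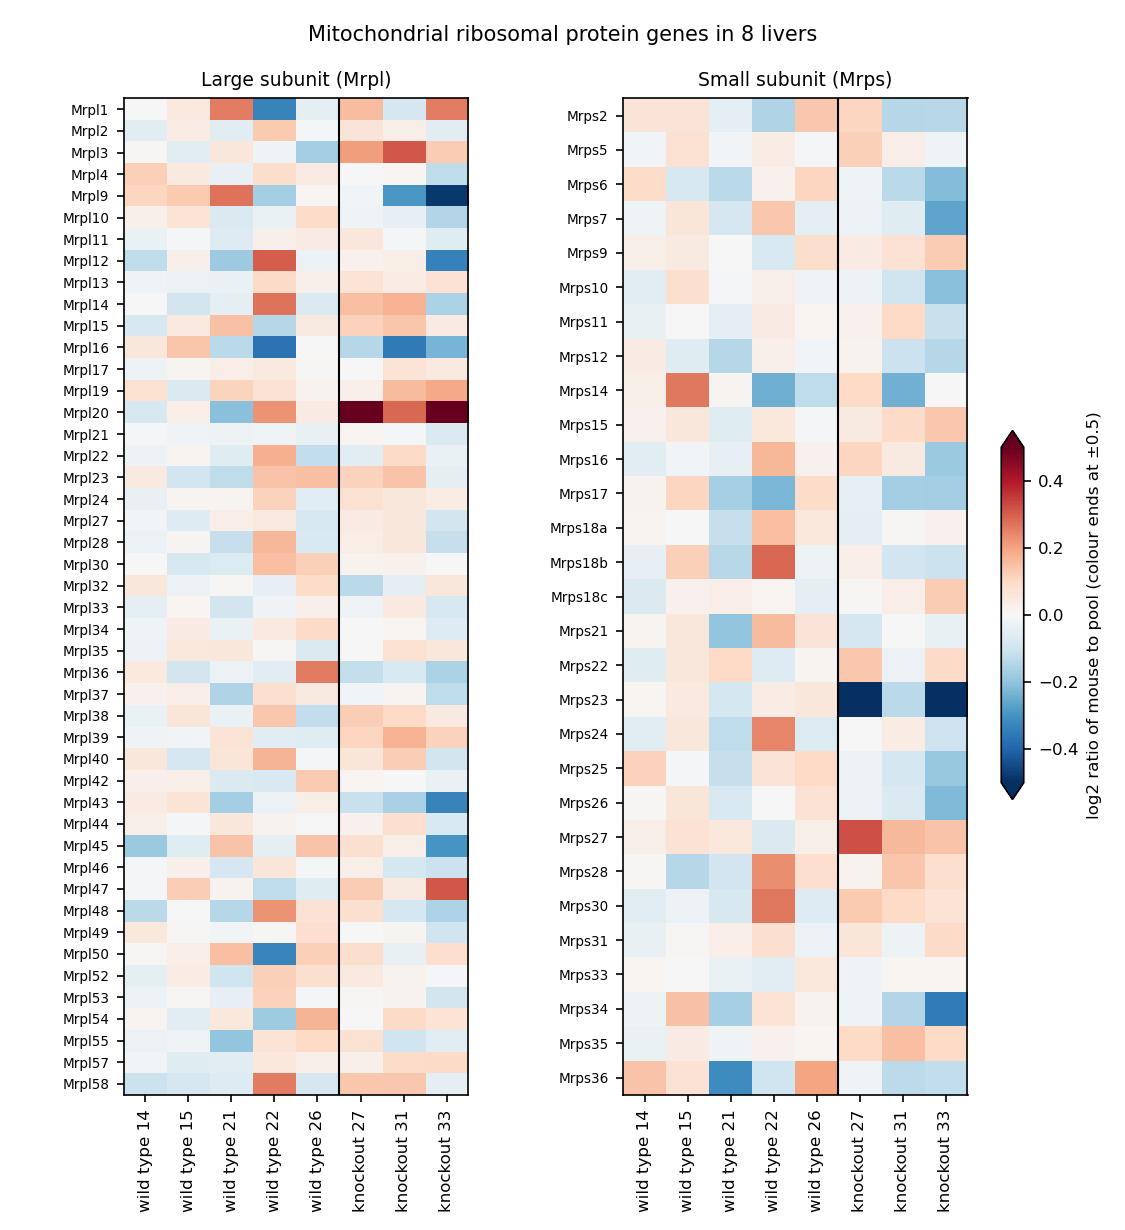
Log2 ratio of each mouse to the wild-type pool (colour, ending at ±0.5) for the 46 large-subunit genes on the left and the 29 small-subunit genes on the right, with wild-type columns before the line and knockout columns after it. Most cells are pale, 557 of 600 values lying within ±0.2, and Mrpl20 and Mrps23 hold the 4 values beyond ±0.5.

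**Figure D3:**
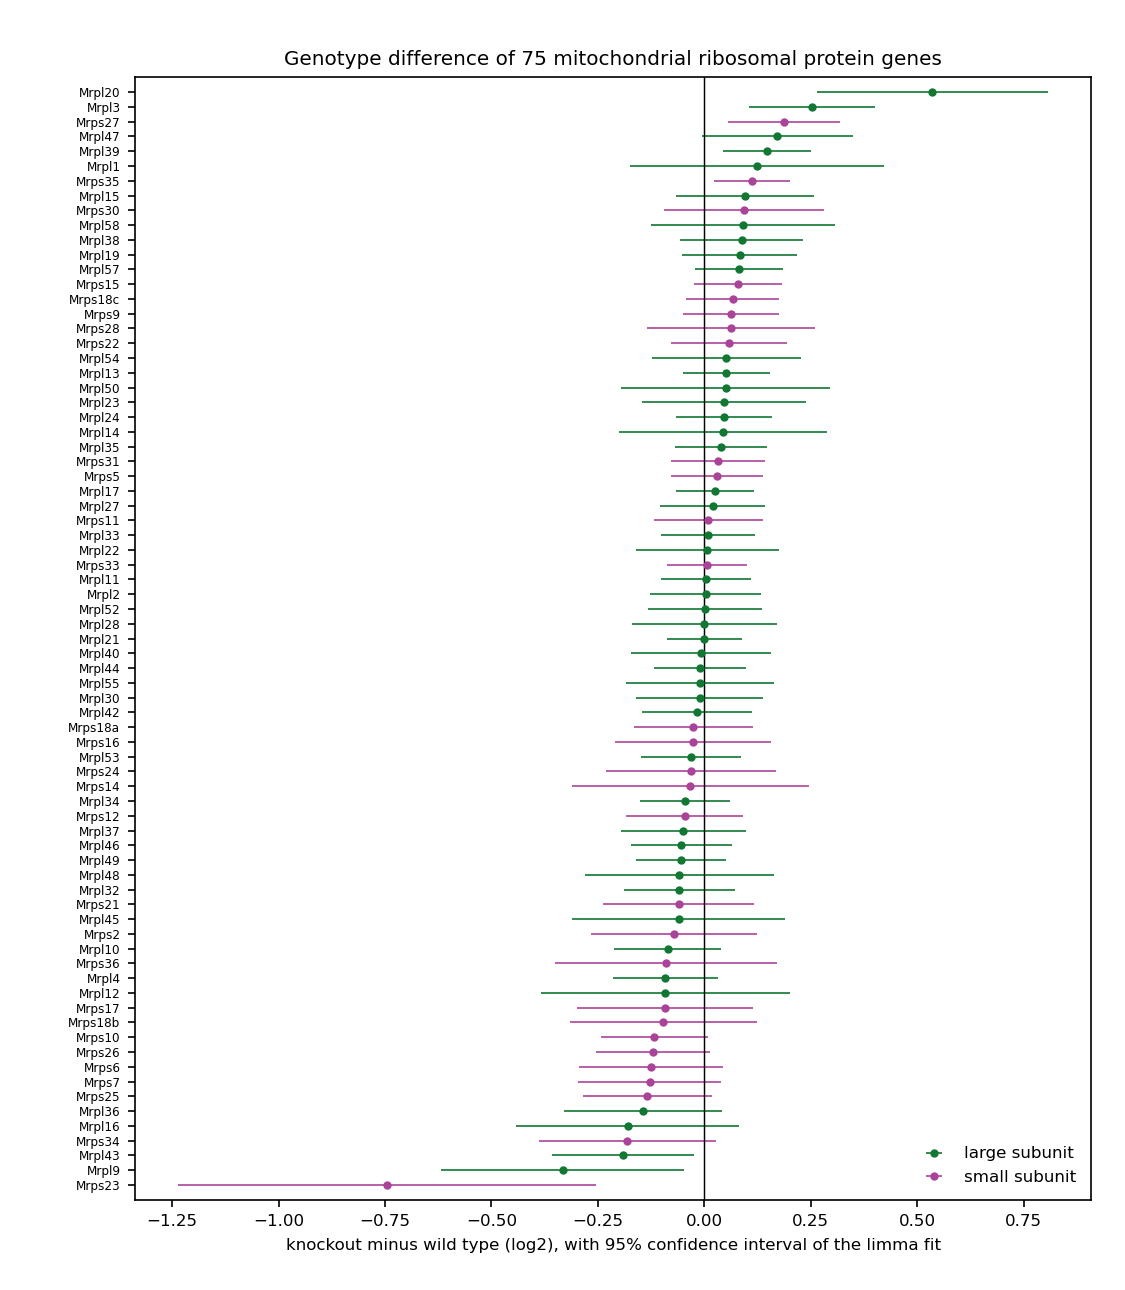
Knockout minus wild-type difference (log2, x axis) of the 75 genes in order of size, each point with its 95% confidence interval from the limma fit, green for the large and purple for the small subunit. The intervals of 8 genes leave out 0, and none of these genes passed the adjusted threshold.

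Among the large-subunit genes, Mrpl20 (Gene ID 66448, chromosome 4) was furthest from the wild types. It is the counterpart of bacterial L20, a protein that binds the large ribosomal RNA early in assembly. Its log2 ratio to the pool was -0.08 in wild type 14, 0.03 in 15, -0.21 in 21, 0.23 in 22 and 0.04 in 26, while knockouts 27, 31 and 33 had 0.68, 0.29 and 0.64. All 3 knockouts lay above the highest wild type, though knockout 31 exceeded wild type 22 by little. The knockout mean was 0.54 ± 0.22 (SD, n = 3) and the wild-type mean 0.0018 ± 0.16 (SD, n = 5), a difference of 0.53 ± 0.12 (SE) or 1.45-fold, with an unadjusted p of 0.00183 and an adjusted p of 0.315. With the knockout sign turned the difference was -0.54.

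Mrpl3 (Gene ID 94062, chromosome 9) is the counterpart of bacterial L3, which reaches toward the peptidyl transferase centre. Its ratios were 0.01, -0.05, 0.06, -0.02 and -0.17 in the wild types in the same order, and 0.21, 0.31 and 0.13 in the knockouts. Again each knockout exceeded each wild type. The difference was 0.25 ± 0.06 (SE), 1.19-fold, with an adjusted p of 0.351, and turning the knockout sign gave -0.18 with overlapping groups. Mrpl39 (Gene ID 27393, chromosome 16), a protein found only in mitochondrial ribosomes, had ratios of -0.02, -0.01, 0.07, -0.06 and -0.06 in the wild types and 0.11, 0.17 and 0.12 in the knockouts. Its groups were also separate, and its 2 probes gave differences of 0.13 and 0.17. The averaged difference was 0.15 ± 0.05 (SE, adjusted p = 0.431), or -0.12 with the sign turned.

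Mrpl9 and Mrpl43 lay on the other side. Mrpl9, the counterpart of bacterial L9, had ratios of 0.11, 0.13, 0.27, -0.17 and 0.01 in the wild types and -0.01, -0.29 and -0.48 in the knockouts. Wild type 22 fell between the knockouts, so the groups overlapped, and the difference was -0.33 ± 0.12 (SE, adjusted p = 0.499). For Mrpl43, a mitochondria-specific protein, the ratios were 0.04, 0.07, -0.17, -0.03 and 0.03 against -0.11, -0.16 and -0.34, and the difference was -0.19 ± 0.07 (SE, adjusted p = 0.506). Wild type 21 lay below knockouts 27 and 31. Mrpl47, the counterpart of bacterial L29, was 0.17 ± 0.08 (SE) higher with an adjusted p of 0.545, with ratios of -0.01, 0.12, 0.02, -0.13 and -0.06 in the wild types and 0.13, 0.04 and 0.31 in the knockouts. Only knockout 33 stood clearly above the wild types there. With the sign turned the differences were 0.19 for Mrpl9, 0.22 for Mrpl43, whose groups were then separate, and -0.15 for Mrpl47.

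The small-subunit gene with the largest difference was Mrps23 (Gene ID 64656, chromosome 11), whose protein is found only in mitochondrial ribosomes. Its wild-type ratios were 0.01, 0.05, -0.09, 0.04 and 0.06, and its knockout ratios were -1.29, -0.13 and -0.77. The wild types thus lay close together, while the knockouts were spread over more than the whole wild-type range and knockout 31 lay just under wild type 21. The knockout mean was -0.73 ± 0.58 (SD, n = 3) and the wild-type mean 0.013 ± 0.058 (SD, n = 5). The difference was -0.74 ± 0.21 (SE), with a 95% confidence interval from -1.23 to -0.25, an unadjusted p of 0.00797 and an adjusted p of 0.403. With the sign turned it was 0.72.

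Mrps27 (Gene ID 218506, chromosome 13), a pentatricopeptide repeat protein of the small subunit, had wild-type ratios of 0.03, 0.07, 0.05, -0.07 and 0.03 and knockout ratios of 0.32, 0.16 and 0.14. Every knockout exceeded every wild type, with a difference of 0.19 ± 0.06 (SE, adjusted p = 0.430), or -0.23 with the sign turned. Mrps35 (Gene ID 232536, chromosome 6), another mitochondria-specific protein, had ratios of -0.03, 0.04, -0.02, 0.02 and 0.01 against 0.10, 0.15 and 0.10. The groups were separate by a small margin, since the difference was 0.11 ± 0.04 (SE, adjusted p = 0.481), or -0.12 with the sign turned. Mrps10, the counterpart of bacterial S10, and the mitochondria-specific Mrps26 and Mrps25 had differences of -0.12 ± 0.06, -0.12 ± 0.06 and -0.13 ± 0.07 (SE), with adjusted p of 0.558, 0.566 and 0.572. In all 3 the lowest mouse was knockout 33 (-0.21, -0.22 and -0.19), and the other knockouts lay among the wild types or near them. Turning the sign gave 0.10, 0.10 and 0.07.

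**Figure D4:**
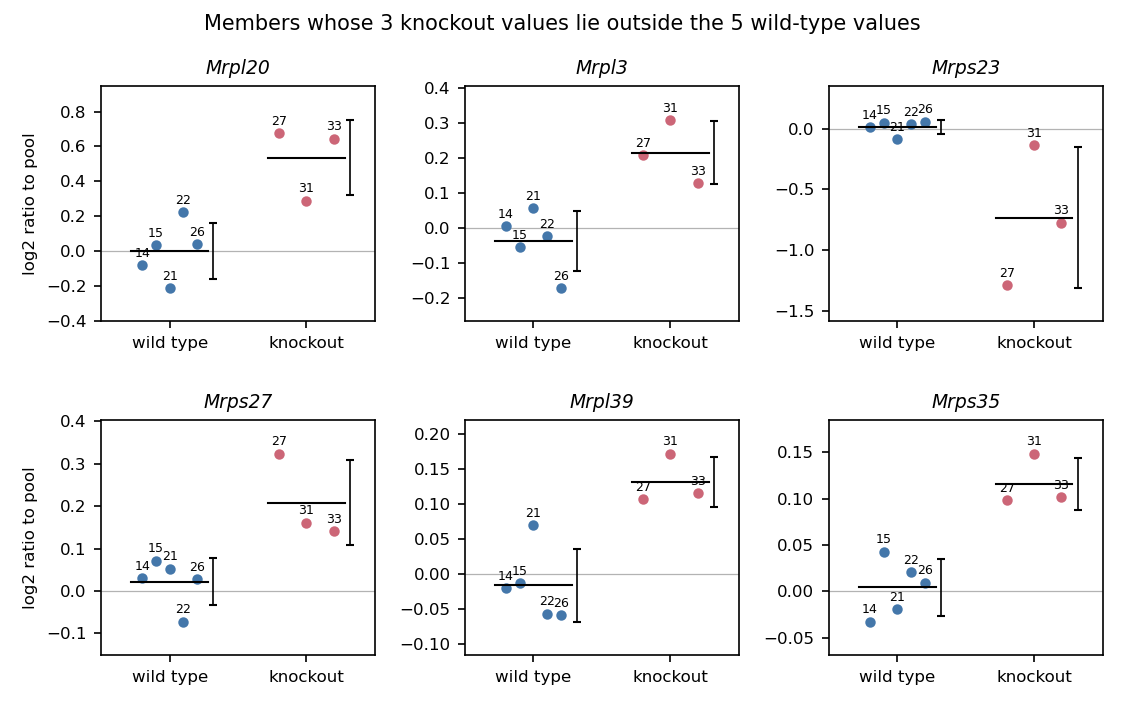
Log2 ratio to the pool (y axis, scaled for each gene) of each numbered mouse for the 6 genes in which all 3 knockouts lay outside the 5 wild types, with group means as horizontal lines and error bars of 1 SD (n = 5 and n = 3). Mrps23 is the only such gene with lower knockout values, and its knockouts range from -1.29 to -0.13.

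By subunit the split was slight. Of the 46 large-subunit genes 25 were higher and 21 lower in the knockouts, with 5 (10.9%) at an unadjusted p under 0.05 and a median difference of 0.0023. Of the 29 small-subunit genes 12 were higher and 17 lower, with 3 (10.3%) at that p and a median of -0.032. Both shares were near the 9.28% of all features and 11.3% of named genes at that p. With the sign turned the medians were -0.019 and 0.012, and the difference between the subunits was not tested. The 43 genes with a bacterial counterpart had a median of 0.0033 and the 27 found only in mitochondria had one of -0.0083, with Mrpl55, Mrps18a, Mrps18b, Mrps28 and Mrps36 left out of this split. The subunit names do not always match the ribosome: in mammalian structures the products of Mrps30 and Mrps18a sit in the large subunit, and that of Mrps36 is now assigned to the 2-oxoglutarate dehydrogenase complex.

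Among the mice, rather than the genotypes, the genes varied partly in common. The median ratio over the 75 genes was -0.0083, 0.021, -0.046, 0.042 and 0.018 in wild types 14, 15, 21, 22 and 26, and 0.023, 0.019 and -0.056 in knockouts 27, 31 and 33. Wild type 21 and knockout 33 were lowest and wild type 22 highest, so the extremes did not follow the genotype. Of the 75 genes, 35 (46.7%) had their lowest wild-type value in mouse 21, against 16.5% of named genes, and 30 (40%) had their highest in mouse 22, against 29.5%. Over all 8 mice 27 genes (36%) were lowest in knockout 33, against 20.8% of named genes, and 17 (22.7%) in wild type 21, against 6.63%. The share of genes above the pool was 29.3% in wild type 21, 38.7% in knockout 33 and 45.3% in wild type 14, and it was 60% to 66.7% in the other 5 mice. In wild type 21 it was 17.2% of small-subunit and 36.96% of large-subunit genes, while in knockout 33 it was 41.4% and 36.96% and in wild type 14 it was 55.2% and 39.1%, so neither subunit was the lower in all 3 of these mice. A low wild type 21 was not particular to these genes. The share there was 18.5% for nuclear oxidative phosphorylation subunits (median ratio -0.084) and 22.2% for mitochondrial aminoacyl-tRNA synthetases. It was 29.4% for mitochondrial import and chaperones and 33.3% for ribosome assembly. For translation factors it was 46.2%, for mitochondrial genome expression 61.1%, for regulators 68.75% and for ribosomal proteins named otherwise 75%. Wild type 22 was also the array with the widest spread and the highest erythroid markers, and the part of either in the values of the 75 genes was not tested.

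The correlation of each gene with the median of the other genes over the 8 mice describes how far it moved with them. All genes share the same 8 arrays, including their differences in spread. Coefficients of other gene groups are not given here, so whether these stand out was not tested. The coefficient was above 0 for 55 of the 75 genes and above 0.5 for 34, with a median of 0.41. It was highest for Mrpl37 (0.92), Mrpl12 (0.91) and Mrps16 (0.84), and below -0.5 for Mrpl1 (-0.80), Mrpl19 (-0.61), Mrpl47 (-0.59), Mrpl50 (-0.59) and Mrps18c (-0.52). The 4 genes with the smallest unadjusted p had coefficients of 0.025 (Mrpl20), -0.16 (Mrpl3), 0.16 (Mrps23) and -0.087 (Mrps27). Coefficients further from 0 were those of Mrpl43 (0.62), Mrps34 (0.79) and Mrpl39 (-0.39), whose genotype differences were -0.19, -0.18 and 0.15. Mrpl9, with a difference of -0.33, had a coefficient of 0.031.

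Mrpl12, the counterpart of bacterial L7/L12, which in human cells also binds the mitochondrial RNA polymerase, had ratios of -0.13, 0.03, -0.18, 0.30 and -0.03 in the wild types and 0.02, 0.03 and -0.34 in the knockouts. Wild type 22 was highest and knockout 33 lowest, and the genotype difference was -0.09 ± 0.13 (SE). Mrpl1, whose bacterial counterpart forms the stalk by which spent tRNA leaves, had the widest range over the wild types, with ratios of 0.00, 0.05, 0.26, -0.33 and -0.04 and a range of 0.59. Its knockouts, at 0.16, -0.08 and 0.26, lay within that range, and the mice that were low for most of the genes were high for Mrpl1. Mrpl16, the counterpart of bacterial L16, ran from -0.37 in wild type 22 to 0.14 in wild type 15, and its knockouts, at -0.14, -0.35 and -0.23, lay within those values. Mrps36 ranged from -0.31 in wild type 21 to 0.20 in wild type 26, with knockouts at -0.02, -0.13 and -0.12. For both of these genes the wild-type range was 0.51, and the differences of -0.18 ± 0.11 and -0.09 ± 0.11 (SE) were smaller than it.

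The steadiest genes were Mrpl21 and Mrpl17, whose bacterial counterparts L21 and L17 are core proteins of the large subunit. Their values over all 8 mice spanned 0.083 and 0.097. Mrpl17 was averaged over 3 probes, and averaging can narrow a range. A single probe of Mrpl17 ran from -0.062 in wild type 14 to 0.17 in knockout 33. Mrps12, the counterpart of the decoding-centre protein S12, differed by -0.05 ± 0.06 (SE), and Mrps22, mutated in inherited mitochondrial disease in humans, by 0.06 ± 0.06 (SE). Mrpl44, which has a ribonuclease III-like fold, differed by -0.01 ± 0.05 (SE). Mrpl58, a peptidyl-tRNA hydrolase built into the large subunit, had ratios of -0.11, -0.08, -0.06, 0.26 and -0.09 in the wild types and 0.13, 0.14 and -0.04 in the knockouts. Mrps30 had -0.05, -0.03, -0.08, 0.26 and -0.06 against 0.13, 0.10 and 0.07. In both genes wild type 22 alone stood above the other wild types and above the knockouts, and the differences were 0.09 ± 0.09 for Mrpl58 and 0.09 ± 0.08 for Mrps30 (SE). The other 49 genes differed by -0.18 (Mrps34) to 0.10 (Mrpl15), 25 higher and 24 lower, and none had an adjusted p below 0.576.

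For the 12 genes read by several probes, the gap between their differences was 0.022 to 0.19 with a median of 0.055, and it was under 0.1 in 9. The widest gaps were those of Mrps31 (0.13 and -0.06), Mrpl34 (-0.13 and 0.04) and Mrps18b (-0.04 and -0.15). Mrps31 is mitochondria-specific, Mrpl34 is the counterpart of bacterial L34 and Mrps18b is among 3 mammalian versions of S18. For Mrps18b the probes parted in wild type 22, at 0.01 and 0.57. These 3 gaps exceed the median absolute difference of 0.059 over the 75 genes.

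None of the genes listed here that work beside this ribosome passed the adjusted threshold. Their counts at an unadjusted p under 0.05 stand beside 9.28% of all features and 11.3% of named genes. Of the mitochondrial ribosomal proteins named otherwise, 3 of 4 measured were higher, and Gadd45gip1 and Chchd1, both at 0.05, led them. Of 13 translation factors 6 were higher and 7 lower, with 2 (15.4%) at that p. These were Mtfmt, which formylates the initiator methionine, at -0.12 ± 0.04 (SE) and the initiation factor Mtif3 at -0.17 ± 0.06 (SE), both with an adjusted p of 0.473. Of 18 aminoacyl-tRNA synthetase genes and their partners 5 were higher and 13 lower, led by Nars2 for asparagine (0.18 ± 0.08) and Qrsl1, a subunit of the glutamine amidotransferase (-0.26 ± 0.12), with a list median of -0.063.

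Of 21 ribosome assembly genes 9 were higher and 12 lower, with 4 (19.05%) at an unadjusted p under 0.05, against 9.28% of all features and 11.3% of named genes. Ngrn, which with other factors protects the mitochondrial large ribosomal RNA, had ratios of -0.11, -0.17, -0.06, 0.43 and -0.13 in the wild types and 0.29, 0.55 and 0.66 in the knockouts. Wild type 22 lay between the knockouts, and the difference was 0.51 ± 0.15 (SE, adjusted p = 0.412). Mettl17, a factor for small-subunit assembly, differed by 0.16 ± 0.06 (SE, adjusted p = 0.480). Of 18 genes for replication and expression of the mitochondrial genome 12 were higher and 6 lower, with 4 (22.2%) at that p. The largest of the named pair was Polg, the catalytic subunit of the mitochondrial DNA polymerase, at -0.25 ± 0.08 (SE, adjusted p = 0.431), and the termination factor Mterf1a stood at 0.19 ± 0.07 (SE, adjusted p = 0.490).

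Of 16 regulators of mitochondrial biogenesis 9 were higher and 7 lower, and only the nuclear receptor Ppard (0.19 ± 0.08 SE, adjusted p = 0.518) had an unadjusted p under 0.05. The estrogen-related receptor Esrra differed by -0.17 ± 0.10 (SE). Of 17 import and chaperone genes 7 were higher and 10 lower, led by the protease Lonp1 (-0.09 ± 0.05 SE) and the chaperone Hspa9 (0.14 ± 0.09 SE). None of them had an unadjusted p under 0.05. The 81 nuclear oxidative phosphorylation subunits, the assembly partners of what this ribosome makes, split 40 higher to 41 lower with a median difference of -0.00018. Cox6b1 of cytochrome c oxidase stood at 0.33 ± 0.09 (SE, adjusted p = 0.367) and Cox7a1 of the same complex at -0.38 ± 0.12 (SE, adjusted p = 0.445).

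Cytosolic ribosomal protein genes, which build the ribosome of the cytosol, were mostly higher in the knockouts, though none passed the adjusted threshold. Of 54 measured, 48 were higher and 6 lower, with 8 (14.8%) at an unadjusted p under 0.05 and a median difference of 0.082. Over all features 20013 of 36169 were higher, 9.28% had such a p and the median difference was 0.013. Their median ratio was -0.052, -0.020, 0.017, 0.14 and 0.020 in the wild types and 0.097, 0.13 and 0.086 in the knockouts. Wild type 22 was above every knockout, so the groups overlapped, and with the knockout sign turned the median difference was -0.13. Rpl10 and Rpl35a, the 2 with the smallest unadjusted p, differed by 0.20 ± 0.06 each (SE, adjusted p = 0.416 and 0.433). They were not the largest differences, which ran from -0.15 to 0.59 over the list. Whether the 2 kinds of ribosome differ in their response was not tested.

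**Figure D5:**
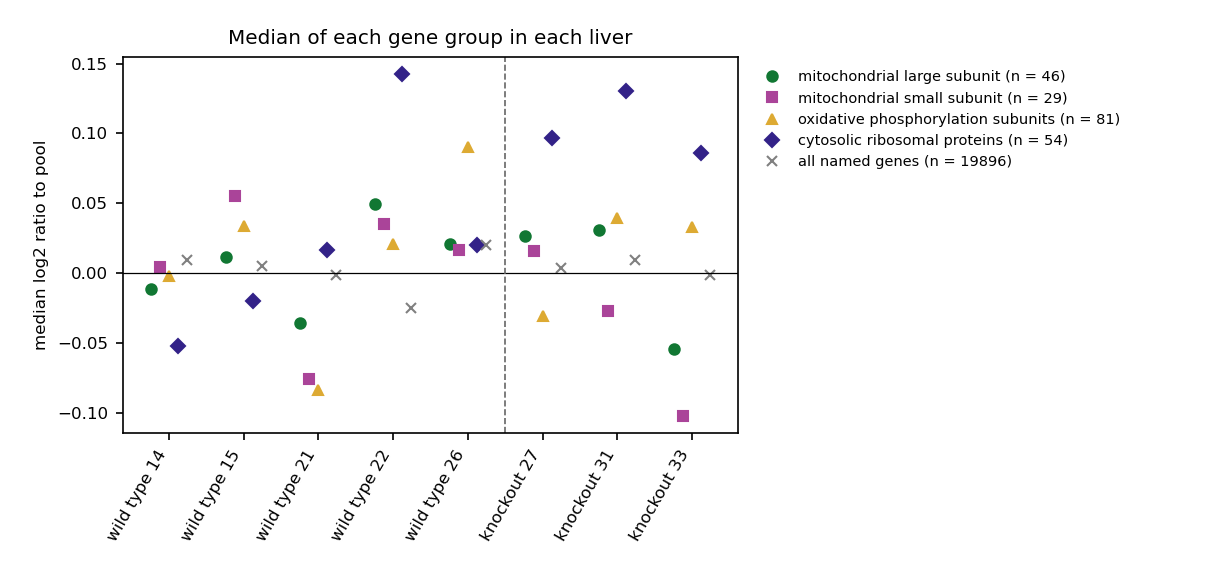
Median log2 ratio to the pool (y axis) of 5 gene groups in each liver (x axis), wild types before the dashed line and knockouts after it. The mitochondrial subunits are lowest in wild type 21 and knockout 33, and the oxidative phosphorylation subunits are lowest in wild type 21 (-0.084). The cytosolic ribosomal proteins are highest in wild type 22 (0.14).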

How the data were processed

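The authors deposited 1 table of processed values with 1 column per mouse, whose unit is taken as the log10 ratio of mouse to pool. The labels' protocols name spin-column RNA with DNase treatment, amplification with aminoallyl labelling, and Cy3 and Cy5. The series' design text names a dye swap. No source used here states how swaps were merged, how background was corrected or how arrays were normalized, and spot brightness was not used. Here values were multiplied to log2, symbols were updated through the GRCm38.p6 table (16574 current, 6594 updated, 115 kept; 16273 of 39556 probes unnamed) and probes of a symbol were averaged, giving 36169 features. Genotypes were compared in limma 3.58.1 (R 4.3.3; lmFit, eBayes), adjusted by Benjamini-Hochberg over all features at 0.05, and the fit was tested on simulated data. Different mice are the replicates; their numbers are not shared between genotypes. The members and lists were chosen with earlier results of these data known. Genes named were the 6 per subunit with the smallest p, the 2 highest and 2 lowest differences, the 3 widest wild-type ranges, the 2 narrowest ranges, the 3 largest probe gaps and 8 fixed genes (Mrpl12, Mrps12, Mrpl58, Mrps18b, Mrpl44, Mrps22, Mrps30 and Mrps36). Of each companion list the 2 genes with the smallest unadjusted p were named. Those named only for their correlation with the other genes, for a mouse far from the others, for the ends of the remaining 49 or as neighbours were chosen after their values were seen.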

Additional observations from a re-analysis of the deposited data

Results flagged for a closer look

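Mrpl58 and Mrps30 each had a wild-type mouse far from the other 4. In wild type 22 the log2 ratio of Mrpl58 was 0.261 and that of Mrps30 was 0.262, and the gap to the next wild type was 0.876 and 0.847 of the whole wild-type range, above the limit of 0.71 for 5 samples. Over all 75 genes 4 (5.33%) passed that limit, Mrpl14, Mrpl58 and Mrps30 with a high wild type 22 and Mrpl37 with a low wild type 21. Chance flags about 1 in 20 groups, and 5.33% is near that share.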

How the results depend on the processing

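No gene of the 75 passed an adjusted p of 0.05 under any of the 18 alternatives, though leaving out the least variable 25% of features left 50 of them to test. Their lowest adjusted p was 0.0716 with array weights, 0.0756 for knockouts against the pool and 0.0977 without wild type 22, each for Mrpl20, and 0.801 without knockout 33, then for Mrpl3. With each mouse left out in turn, the median difference of the 75 genes ran from -0.021 to 0.024 and the number at an unadjusted p under 0.05 from 5 to 13 (13 without wild type 22, 5 without wild type 14). The count over all features moved most, from 10 to 207 with array weights, 76 for knockouts against the pool, 19 without both arrays of widest spread, 17 without the least variable 25% of features, 16 with every probe on its own and 6 after quantile normalization. Leaving out a mouse gave 6 (wild type 14) to 65 (wild type 22), with 17 without knockout 27 and 18 without wild type 26. With array weights 2 companion genes passed, Ngrn (adjusted p = 0.0422) and Cox6b1 (0.0485), the translation factor median was -0.10 and that of genes with a bacterial counterpart 0.044. With the knockout sign turned, list medians were 0.046 for translation factors, -0.042 for ribosomal proteins named otherwise, 0.033 for aminoacyl-tRNA synthetases, 0.011 for import and chaperones and -0.13 for cytosolic ribosomal proteins. Without both arrays of widest spread they were 0.041 for the large subunit, 0.026 for genes found only in mitochondria, -0.052 for genome expression and -0.031 for regulators. Without the least variable 25% of features, ribosomal proteins named otherwise had 0.0031 and genes with a bacterial counterpart -0.040. Leaving out 1 mouse, the regulators ran from -0.043 (without knockout 33) to 0.027 and the proteins named otherwise from 0.0094 (without wild type 22) to 0.057. The causes were not tested. In 100 bases around the start in place of the whole window the shares were 30.3% against 8.01% for the ETS word, 22.7% against 4.09% for YY1, 10.6% against 4.06% for NRF1 and 3.03% against 3.75% for the E-box. No paired analysis was possible because the mouse numbers are not shared between the genotypes. The number of arrays and the missing spot signals limit these results.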

Other observations

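Some genes beside Mrpl20 and Mrpl3 on their chromosomes, singled out after their values were seen, differed more than the gene they lie near, and none of them passed the adjusted threshold. Ints11, a catalytic subunit of the Integrator complex and the fifth measured gene after Mrpl20 on chromosome 4, had ratios of -0.33, -0.28, 0.96, -0.71 and -0.45 in wild types 14, 15, 21, 22 and 26 and 1.88, 1.10 and 1.76 in knockouts 27, 31 and 33. All 3 knockouts lay above wild type 21, which stood apart from the other wild types, and the difference was 1.74 ± 0.37 (SE, adjusted p = 0.30). Also near Mrpl20, the Wnt signalling gene Dvl1 differed by -0.56 ± 0.09 (SE, adjusted p = 0.138), while the cyclin gene Ccnl2 differed less than Mrpl20, by -0.29 ± 0.09 (SE, adjusted p = 0.427). Beside Mrpl3 on chromosome 9, Nudt16 differed by 0.52 ± 0.09 (SE, adjusted p = 0.206), the phosphatase gene Acpp by -0.75 ± 0.17 (SE, adjusted p = 0.315) and the chemokine receptor gene Ackr4 by 0.37 ± 0.11 (SE, adjusted p = 0.426). Among the 10 measured neighbours of Mrps23, 5 on each side, the largest difference was that of Msi2, at -0.27. Among those of Mrps27 it was that of Naip2, at -0.30 ± 0.12 (SE, adjusted p = 0.521). Other neighbours differed little, such as Tmem88b (0.019) and Tas1r3 (-0.0031) near Mrpl20 and Nudt16l2 (0.0056) near Mrpl3. The build of the probes is not stated, so only gene order was used.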
